A study of Mus musculus with 22 samples.

Results

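Cassette exon inclusion was compared between untransfected wild-type and DNA methyltransferase triple-knockout mouse embryonic stem (ES) cells. Of 10873 exon events in the whole series, 9996 were listed in both libraries. The comparison covers 2633 of these events (2542 distinct exons in 1772 genes). Each had at least 20 informative reads in each library, meaning reads that fit only the inclusion isoform or only the skipping isoform, and at least 1 read of each class in each library. The 5062 other exons with 20 informative reads in both libraries lacked a read class in at least 1 of them, and entered only the adjustment of p-values. WT cells are the R1 line. TKO cells are a line without Dnmt1, Dnmt3a and Dnmt3b, taken from a published source per the labels. Line background and methyltransferase loss cannot be told apart, and the labels do not give the number of knockout clones. Both lines were grown in serum with leukaemia inhibitory factor on gelatin without feeder cells, were not transfected, and were read as 50-base single-end libraries. The authors pooled 2 replicates per group before deposit, so there is 1 library per group. Every test below compares 2 libraries, not 2 conditions, and no value has a replicate error. A second pair is used for comparison: WT and TKO cells 48 h after transfection with siRNAs against the 3 HP1 proteins, at 60 nM each in WT and at 80 (HP1alpha), 80 (HP1beta) and 120 nM (HP1gamma) in TKO, read as 101-base libraries.

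A cassette exon is either joined into the mature transcript or skipped together with its flanking introns. The choice depends on splice site strength, on regulatory proteins bound to the RNA and on the rate and chromatin of transcription. CpG methylation is maintained by Dnmt1 and established by Dnmt3a and Dnmt3b. In mammalian genomes gene bodies are mostly methylated, and methylation of exons can alter the binding of proteins that slow the polymerase or recruit splicing factors. ES cells are unusual in that they survive and self-renew without these 3 enzymes.

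The deposited inclusion level runs from 0, always skipped, to 1, always included, and each level carries an interval whose confidence is not stated. The exons had a median of 158 informative reads in WT and 166 in TKO, and their deposited intervals had a median width of 0.08 in both. Reads over all events numbered 25941844 in WT and 25200437 in TKO, of which 12844725 and 12815799 fit an isoform. At their listed exons, reads that fit an isoform of Dnmt3a stood at a TKO to WT ratio of 0.442 (exact 95% interval 0.404 to 0.483, counting error only) and those of Dnmt3b at 0.142 (0.134 to 0.150), while the HP1 genes Cbx1, Cbx3 and Cbx5 stood at 1.10, 1.03 and 0.960. Whether the Dnmt3a and Dnmt3b exons lie in the deleted parts was not examined, and no Dnmt1 event was listed. Of 11 ES cell markers, 4 were listed, with 39963 isoform reads in WT and 34631 in TKO: Zfp42 had 5681 and 8561, while Klf4 (7992 and 5707), Tdgf1 (2609 and 1810) and Sall4 (23681 and 18553) had fewer in TKO. Of 9 endoderm markers, Col4a1 had 147 and 742, and Sox17 was listed in TKO alone with 344. Of 7 mesoderm and blood markers, Pecam1 had 2182 and 4718, and Tek was listed in TKO alone with 104. The 3 listed neural markers of 7 summed to 1022 and 1120 but did not move together, with Pax6 at 116 and 470, Ncam1 at 824 and 566 and Map2 at 82 and 84. Since an event needs 100 reads to be listed, a marker missing from a library is not thereby at 0. None of the 7 fibroblast, 5 muscle and 8 trophoblast markers was listed in either library. Pou5f1, Nanog and Sox2 had no listed event. In bulk RNA, fewer cells of a type and less RNA per cell cannot be told apart, and the part of these markers in the inclusion differences was not tested.

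Inclusion differed at a minority of the exons and more often upward than downward in TKO. An exon was called when Fisher's exact test on its informative reads gave an adjusted p of at most 0.05 (Benjamini-Hochberg, over all 7695 exons with 20 informative reads), the deposited level differed by at least 0.1 and level and reads had the same sign. Of the 2633 exons, 208 were called (7.90%), 152 higher in TKO (5.77%) and 56 lower (2.13%), in 182 genes. The deposited intervals did not overlap at 193 of the 208, 141 higher and 52 lower. Among the exons lacking a read class the called share was 2.79% (1.82% higher, 0.968% lower), and among all 7695 it was 4.54% (3.17% higher, 1.36% lower). Reads shifted toward inclusion across the exons as a whole: the median log2 odds ratio of inclusion in TKO against WT was 0.22. Summed over the exons, 873061 reads fit inclusion alone and 369563 skipping alone in WT, against 913606 and 338212 in TKO. When that median was taken as no change, 116 exons were called higher and 81 lower, so the share called higher went from 73.1% to 58.9%. With the median of each eighth of exon length as no change it was 114 and 80, or 58.8%. The cause of the shift over all exons was not tested.

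Most exons moved little. The level differed by less than 0.05 at 1543 exons (58.6%), and the median level was 0.29 in WT and 0.31 in TKO. The median difference was 0.16 at exons called higher and -0.17 at exons called lower, and 78 calls reached a difference of 0.2, 57 higher and 21 lower. At the read threshold, 18 exons with exactly 20 informative reads in the shallower library differed by -0.09 to 0.51 (median 0.04), and 12 with 19, which were left out, by -0.08 to 0.29 (median 0.03). At the class threshold, 280 exons had a single read in their smallest class, of which 7 were called. One further exon, in the transfer RNA methyltransferase gene Trmt10a, passed the p and size thresholds with opposite signs: its level was 0.33 in WT and 0.43 in TKO while 1 of 60 informative reads in WT and 32 of 183 in TKO were for skipping.

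**Figure D1:**
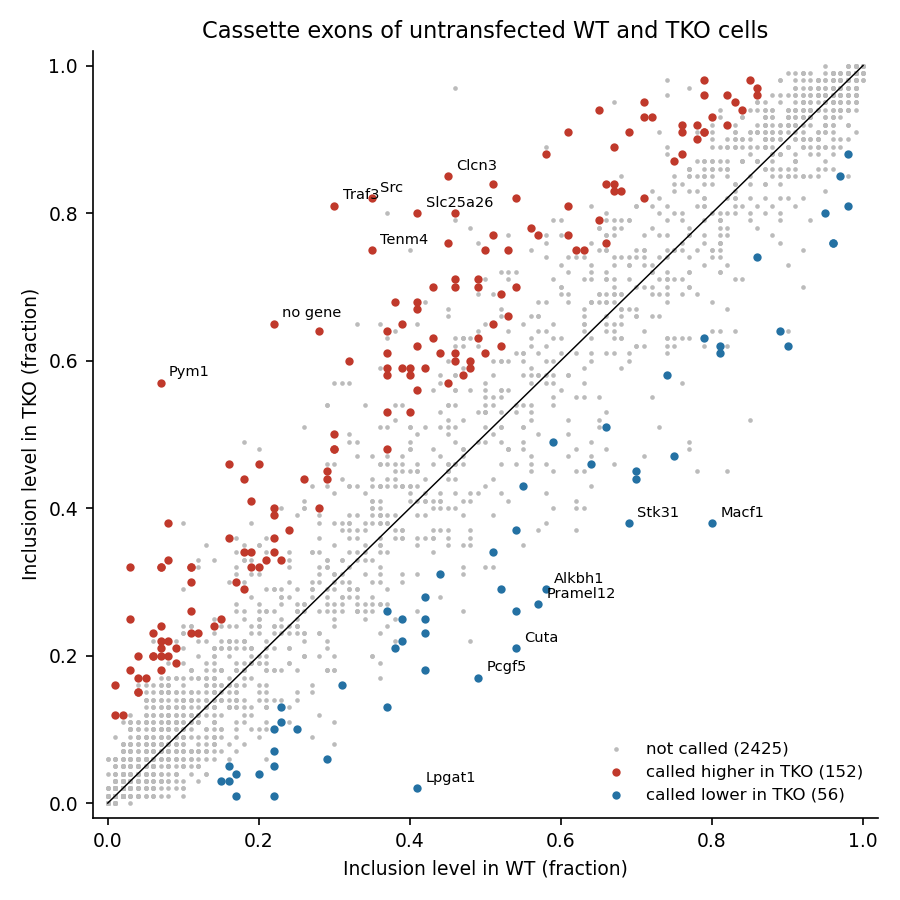
Deposited inclusion level of each of the 2633 exons in WT (x axis, fraction) and TKO (y axis, fraction); red points were called higher in TKO (152), blue points lower (56), grey points were not called, and the line marks equal levels. Most points lie along the line, and red points outnumber blue ones; the 7 largest differences in each direction carry the gene's symbol.

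The 3 largest gains of inclusion were in Traf3, Pym1 and Src. The exon of Traf3, an adaptor of tumour necrosis factor receptor and antiviral signalling (chromosome 12, 111166999 to 111167107), was included at 0.30 in WT (interval 0.14 to 0.48) and 0.81 in TKO (0.66 to 0.93), but on only 20 informative reads in WT and 40 in TKO (exact test, adjusted p = 0.00170). Pym1, which helps strip exon junction complexes from messenger RNA, had an exon of 55 bases that was nearly always skipped in WT (0.07, 0.03 to 0.12) and included in about as many transcripts as not in TKO (0.57, 0.44 to 0.70; chromosome 10, 128750283 to 128750337). For the exon of the tyrosine kinase Src (chromosome 2, 157424828 to 157424935), skipping reads numbered 37 of 80 in WT and 3 of 65 in TKO, and its level was 0.35 and 0.82. None of the intervals of these 3 exons overlapped between the libraries, which was a condition for naming them here.

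The gains that followed were of 0.36 to 0.43. An exon of 107 bases on chromosome 12 (110977664 to 110977770) that lies in no annotated gene went from 0.22 to 0.65. Clcn3, an endosomal chloride and proton exchanger, had an exon at 0.45 in WT and 0.85 in TKO (chromosome 8, 60914753 to 60914828), and 94 inclusion against 52 skipping reads became 208 against 14. The other two called events of Clcn3 were higher too, from 0.24 to 0.37 and from 0.76 to 0.92, but the first of them shares its skipping reads with the 76-base exon, so they are not independent. The exon of Tenm4, a teneurin of cell contacts, was at 0.35 and 0.75 with wide intervals (0.22 to 0.49 and 0.53 to 0.96). Slc25a26, the mitochondrial carrier of the methyl donor S-adenosylmethionine, had an exon of 45 bases at 0.41 and 0.80 on 20 and 39 informative reads. Rpap1, an RNA polymerase II-associated protein, had one at 0.28 and 0.64. These last 3 were no longer called with the median odds ratio of all exons as no change, at an adjusted p of 0.0672, 0.102 and 0.0544.

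The other leading gains were of 0.30 to 0.34. Zfp219, a zinc finger transcription factor, had an exon of 89 bases at 0.46 (0.41 to 0.51) in WT and 0.80 (0.73 to 0.87) in TKO on 358 and 317 informative reads. Chtf8, a subunit of a clamp loader that acts in sister chromatid cohesion and shares this locus with Derpc, had an exon at 0.51 and 0.84, with 82 skipping reads of 425 in WT and 15 of 503 in TKO (exact test, adjusted p = 2.32e-14). The p53 inhibitor gene Mdm4 had an exon of 39 bases at 0.38 (0.33 to 0.44) and 0.68 (0.63 to 0.73), and the form of it with a longer end, 68 bases, at 0.61 and 0.81. Both forms share their skipping reads, 132 in WT and 87 in TKO. A 21-base exon of the SUMO protease gene Senp6 stood at 0.45 and 0.76. Lower-level exons included those of Pdgfc, a platelet-derived growth factor (0.08 and 0.38), and Ppp2r5c, a regulatory subunit of protein phosphatase 2A (0.16 and 0.46), and Sapcd2 had one at 0.58 and 0.88. At all of these exons the TKO interval lay above the WT interval, but intervals apart were a condition for the leading gains.

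The losses were led by exons of Macf1 and Lpgat1. Macf1, a giant linker of actin and microtubules, had an 18-base exon (chromosome 4, 123364057 to 123364074) at 0.80 (0.70 to 0.89) in WT and 0.38 (0.29 to 0.47) in TKO: skipping reads numbered 11 of 93 and 50 of 102. Lpgat1, an acyltransferase of phosphatidylglycerol synthesis, had an exon that lost nearly all inclusion, 0.41 (0.28 to 0.57) and 0.02 (0 to 0.06), with 23 of 28 informative reads for inclusion in WT and 1 of 24 in TKO. This exon (chromosome 1, 191718429 to 191718597) begins 34 bases after an annotated RefSeq start of Lpgat1 (GRCm38.p6). The event itself begins upstream of that start, at 191717834. Tau, encoded by Mapt, had its 711-base exon at 0.90 and 0.62 and the 759-base form of that exon at 0.89 and 0.64; the forms share their 8 skipping reads in WT and 37 in TKO.

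Among other losses, Cuta had a 52-base exon at 0.54 (0.48 to 0.61) in WT and 0.21 (0.15 to 0.28) in TKO. Pcgf5, a Polycomb repressive complex 1 subunit, had one at 0.49 and 0.17, and the AlkB-family demethylase gene Alkbh1 one at 0.58 and 0.29, where skipping reads went from 3 of 82 to 36 of 85. Stk31, a kinase-like gene of the germ line, had an exon at 0.69 and 0.38, and Pramel12, of a gene family expressed in germ cells and early embryos, one at 0.57 and 0.27. Gtf3c2, a subunit of the RNA polymerase III factor TFIIIC, was the best read of the 15 leading losses, at 0.37 (0.33 to 0.41) and 0.13 (0.10 to 0.16) on 358 and 181 informative reads. The remaining leading losses were of 0.23 to 0.28 and lay in Slc66a2 (0.54 and 0.26), Ubap2l (0.70 and 0.44), Wbp1 (0.70 and 0.45), Tnip1, which restrains NF-kappaB signalling (0.42 and 0.18), Cbs, the cystathionine synthase of homocysteine metabolism (0.29 and 0.06), and Tmem134 (0.52 and 0.29). Their intervals did not overlap between the libraries either, as the rule for the leading losses required.

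**Figure D2:**
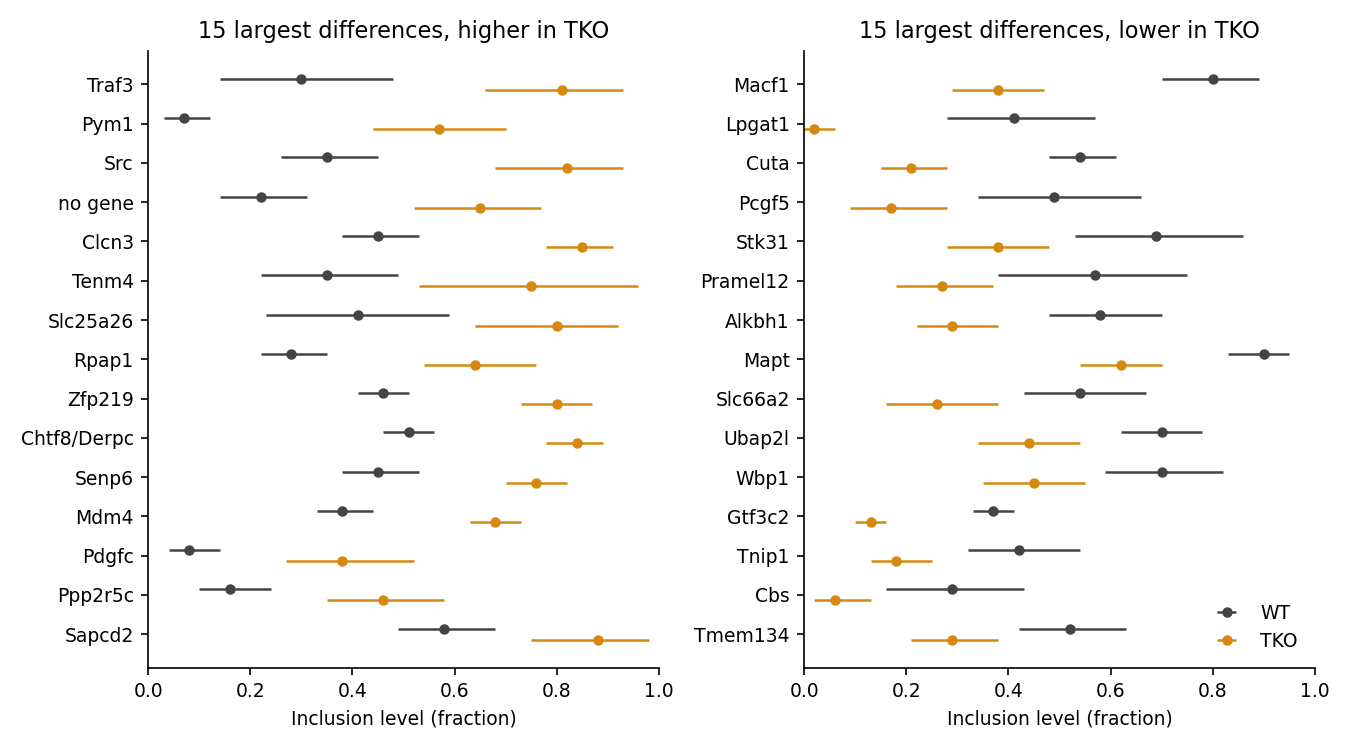
Deposited inclusion level (x axis, fraction) of the 15 largest differences in each direction with 1 exon per gene (y axis), in WT (dark) and TKO (orange); points are levels and bars the deposited intervals. The intervals are apart in every row because the rule for naming exons required it; wide bars, as for Traf3, Tenm4 and Slc25a26, go with few reads.

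The called exons were read by their features. The called share was 1.71% among the 642 exons at a WT level of 0 to 0.05, all 11 higher in TKO, and 18.5% among the 286 exons at 0.41 to 0.60 (37 higher, 16 lower). It was 2.34% among the 214 exons above 0.95, all 5 lower. An exon near 0 or 1 can pass a difference of 0.1 in only 1 direction, so this dependence is in part set by the scale. By length, 11 of 43 exons of at most 27 bases were called (25.6%), against 6.11% to 8.47% in the longer classes. These microexons went both ways, 6 higher and 5 lower. Their median level in WT was 0.18, against 0.29 over all exons, and their median of 360 informative reads in both libraries together stood beside 334. Of the 43, 34 had a length divisible by 3, and 10 of these were called.

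The 11 called microexons are named here after their values were seen. Those lower in TKO were in Macf1, in the nuclear corepressor gene Ncor1 (27 bases, 0.79 and 0.63), in Mia2 (27 bases, 0.17 and 0.01), in Max, the dimer partner of Myc (27 bases, 0.37 and 0.26), and in the RNA-binding protein gene Hnrnpc (26 bases, 0.31 and 0.16). Those higher were in Senp6, in Flna, the actin crosslinker filamin A (24 bases, 0.22 and 0.36), in the polarity kinase gene Mark2 (27 bases, 0.01 and 0.16), in Ctnnd1, the p120 catenin of adherens junctions (18 bases, 0.37 and 0.53), in the formin gene Diaph1 (27 bases, 0.78 and 0.90), and in the centrosomal gene Cdk5rap2 (27 bases, 0.07 and 0.22). The Cdk5rap2 difference had an adjusted p of 0.0315, and of 0.110 with the median odds ratio of all exons as no change. The other features separated the calls less. Exons with a length divisible by 3 were called at 8.65% (79 higher, 36 lower) and the others at 7.14% (73 and 20). Exons with an end shared with a listed exon of another length were called at 8.97% and the others at 7.67%. The called share was 6.82% to 8.73% over 5 classes of the shorter flanking intron and 6.45% on the X chromosome, where all 6 called exons of 93 were higher in TKO. Over 5 classes of informative reads it ran from 5.08% in the shallowest to 11.2% in the next to deepest and 6.48% in the deepest.

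**Figure D3:**
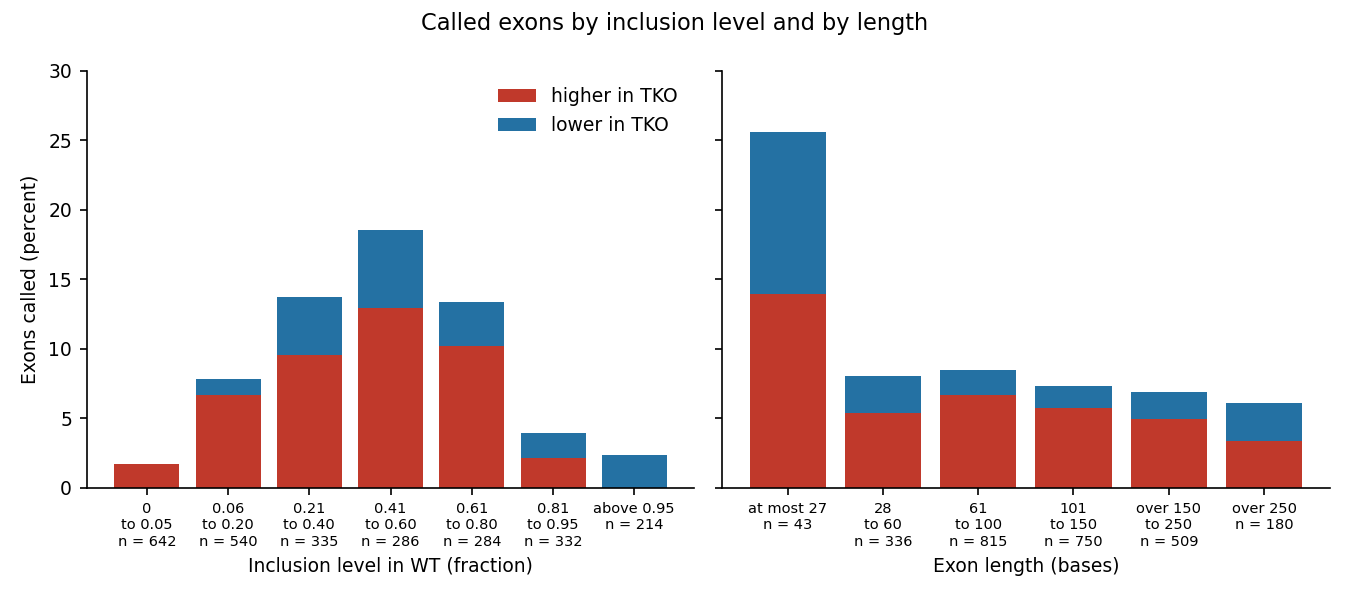
Share of exons called (y axis, percent) by inclusion level in WT (left, fraction) and by exon length (right, bases); red is higher and blue lower in TKO, and n is the number of exons in each class. The share peaks at 18.5% for WT levels of 0.41 to 0.60 and at 25.6% for the 43 exons of at most 27 bases.

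In 4 genes, Mff, Ktn1, Mark2 and Prrc2b, called exons went in opposite directions. Mff anchors the fission dynamin Drp1 on mitochondria and its neighbouring cassette exons make tissue forms of the protein. The Mff exon of 159 bases (chromosome 1, 82741818 to 82741976) was at 0.51 (0.43 to 0.59) in WT and 0.34 (0.28 to 0.41) in TKO, with 84 inclusion and 36 skipping reads becoming 70 and 72 (exact test, adjusted p = 0.0146). The 60-base exon downstream (82747083 to 82747142) was at 0.22 (0.18 to 0.26) and 0.39 (0.34 to 0.43), with 96 and 251 reads becoming 183 and 211 (exact test, adjusted p = 6.07e-06). Both events begin at the same upstream exon, and the 60-base exon is the downstream exon of the first event. The junction from the upstream exon to the 60-base exon is therefore a skipping read in the first event and an inclusion read in the second, so the opposite directions in Mff are not independent measurements. The RefSeq promoter window of a predicted gene that starts inside Mff, Gm39668, holds the 159-base exon whole. The window is printed here, selected after its values were seen, to show the element whose inclusion was lower. Capitals mark the exon, which is preceded by ag and followed by gt, the usual intron ends (GRCm38.p6, chr1:82741733-82742032, plus strand).
Mff 159-base exon with flanks: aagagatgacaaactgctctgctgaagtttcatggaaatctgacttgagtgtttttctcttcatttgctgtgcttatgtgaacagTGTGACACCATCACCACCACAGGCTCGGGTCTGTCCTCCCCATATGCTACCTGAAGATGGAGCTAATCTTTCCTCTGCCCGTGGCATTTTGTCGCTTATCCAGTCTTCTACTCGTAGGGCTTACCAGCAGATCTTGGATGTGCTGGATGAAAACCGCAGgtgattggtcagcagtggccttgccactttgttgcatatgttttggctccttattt

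Ktn1, which encodes the kinesin receptor kinectin, had a 72-base exon at 0.47 and 0.58 and, further downstream, an 84-base exon at 0.42 and 0.28. Prrc2b had an exon of 2061 bases at 0.38 (0.36 to 0.40) in WT and 0.21 (0.19 to 0.23) in TKO and an 82-base exon at 0.39 (0.35 to 0.43) and 0.59 (0.54 to 0.63). In Mark2 the 27-base exon went from 6 inclusion and 406 skipping reads in WT to 63 and 311 in TKO. The neighbouring 168-base exon of Mark2 was at 0.15 and 0.25 when read against an upstream exon that skips both, and at 0.98 and 0.81 when read against the 27-base exon, where skipping reads went from 1 to 34. The last value concerns only transcripts with the 27-base exon, which were few in WT, and the events share reads. At each called exon of these 4 genes the WT and TKO intervals did not overlap.

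Genes were next read by function. Of the 208 called exons, 75 lay in genes of at least 1 of 22 lists. The counts below are descriptions, to be read beside the 7.90% of all exons. Actin and microtubule genes had 69 exons, of which 8 were called higher and 4 lower (17.4%). The median absolute difference was 0.05, against 0.03 over all exons. These calls include both forms of the Mapt exon and several Mark2 events, which share reads within each gene and are not independent. Beside those of Macf1, Mapt, Mark2 and Flna, the exons of Epb41l3 and Epb41, which tie spectrin and actin to the membrane, were at 0.67 and 0.89, and at 0.71 and 0.82. The kinesin gene Kif13a had one at 0.84 and 0.94. Of 32 exons in genes known for epithelial and mesenchymal splice forms, 2 were called higher and 2 lower (12.5%), namely those of Ctnnd1, Ktn1 and Macf1 given above. Of 43 exons of adhesion, junction and polarity genes, 1 was called higher and 2 lower (6.98%). The lower ones were in Mfge8, a secreted phosphatidylserine-binding protein (0.20 and 0.04), and in the adhesion receptor Adgrl1 (0.22 and 0.10). This list does not hold every such gene. Outside it, among others, Llgl2 (0.30 and 0.50) and Tenm4 were called higher, Pecam1 was called lower and Mark2 had calls both ways.

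Genes with symbols starting with Slc, most of them solute carriers, had 31 exons, 6 called higher and 1 lower (22.6%), with a median log2 odds ratio of 0.80. The exon of Slc7a3, a cationic amino acid transporter (chromosome X, 101084821 to 101084978), stood at 0.08 (0.06 to 0.09) in WT and 0.33 (0.30 to 0.37) in TKO: 77 inclusion and 291 skipping reads became 291 and 234 (exact test, adjusted p = 3.46e-23). Slc25a38, a mitochondrial glycine carrier, had an exon at 0.06 and 0.23. The exon of Slc9a3r2, a scaffold protein and not a carrier, was at 0.79 and 0.96. Reads that fit an isoform at this same event stood at 3.19 times the WT level. Genes of mitochondrial respiration, structure and import had 27 exons, 2 higher and 3 lower (18.5%). Both respiratory complex I genes among the calls were lower: Ndufv3 had its 1092-base exon at 0.39 (0.37 to 0.40) and 0.22 (0.21 to 0.24), and Ndufs1 a 104-base exon at 0.42 and 0.25. The exon of Uqcr10, another respiratory chain gene but outside this list, was called higher, at 0.08 and 0.20.

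Ubiquitin pathway genes had 57 exons, 7 called higher and 1 lower (14.0%). Those higher include both forms of the Usp1 exon and both of the Mdm4 exon. The forms of each share their skipping reads, so these calls are not independent. Usp1, the deubiquitinase of DNA crosslink repair, had a 220-base exon at 0.71 (0.67 to 0.74) and 0.93 (0.90 to 0.95), and its 239-base form, which shares the skipping reads, at 0.72 and 0.93. The ubiquitin ligase genes Itch and Huwe1 had exons at 0.51 and 0.77, and at 0.37 and 0.59, while Smurf2 had the lower one, at 0.16 and 0.05. With the median odds ratio as no change the Itch exon had an adjusted p of 0.0733. Of 35 exons in kinase and receptor signalling genes, 4 were called higher and none lower (11.4%). They lay in Src, in Map3k7, the TAK1 kinase (0.68 and 0.83), in Nek1 (0.09 and 0.21) and in casein kinase 1 delta, Csnk1d (0.48 and 0.60, exact test, adjusted p = 0.0100, but 0.222 with the median odds ratio as no change). The list does not hold every kinase gene. Outside it, among others, Stk31 had a call lower, Clk4, Map2k3 and Cdk2/Pmel had calls higher and Mark2 had calls both ways. Vesicle traffic and membrane lipid genes had 3 higher and 1 lower of 51 (7.84%). The phosphoinositide phosphatase genes Mtmr2 and Mtmr3 had exons at 0.19 and 0.41, and at 0.41 and 0.62. Golgb1, the Golgi protein giantin, had one at 0.41 and 0.67, with an exact-test adjusted p of 0.0303, and of 0.122 when centred on the median.

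**Figure D4:**
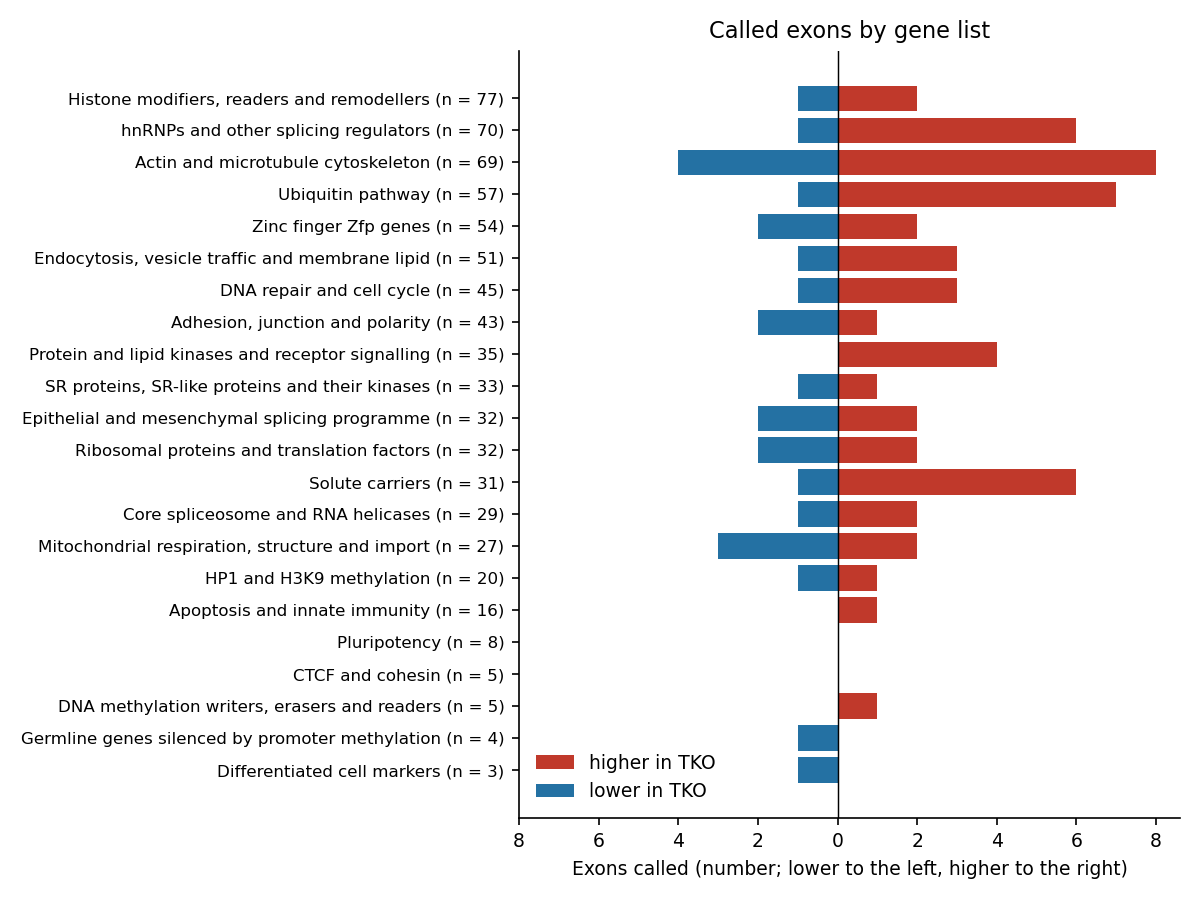
Number of exons called lower (blue, to the left) and higher (red, to the right) in TKO for each of the 22 gene lists (y axis), with the number of exons of each list in brackets; a gene can be in several lists. Cytoskeleton genes have most calls, 8 higher and 4 lower, some of them events that share reads, and the pluripotency and CTCF and cohesin lists have none.

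RNA-binding genes held some of the best-read exons. Of 70 exons in genes of hnRNPs and other splicing regulators, 6 were called higher and 1 lower (10.0%), and the median log2 odds ratio was near 0. The lower one, the 26-base exon of Hnrnpc, was joined by 589 of 1057 informative reads in WT and by 257 of 808 in TKO (exact test, adjusted p = 1.81e-22). Celf1, a regulator of splicing and decay, had an exon at 0.30 (0.27 to 0.34) and 0.48 (0.43 to 0.54). The exon of Rbm39, a spliceosome-linked protein, was at 0.23 (0.21 to 0.25) and 0.33 (0.31 to 0.35), and the overlapping exons of Hnrnpr were at 0.76 and 0.88, and at 0.75 and 0.87. Rbm5 had 2 exons called, at 0.54 and 0.82 and at 0.86 and 0.96. SR proteins, SR-like proteins and their kinases had 1 exon higher and 1 lower of 33 (6.06%): the SR kinase gene Clk4 had one at 0.49 (0.43 to 0.55) and 0.70 (0.66 to 0.75), and the U1-associated Luc7l one at 0.17 (0.14 to 0.20) and 0.04 (0.02 to 0.06). In the core spliceosome and helicase list, 2 were higher and 1 lower of 29 (10.3%). The lower one, in the helicase gene Eif4a2, was at 0.81 (0.79 to 0.82) and 0.61 (0.60 to 0.63) on 4980 and 4467 informative reads.

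Of 32 exons of ribosomal protein and translation factor genes, 2 were higher and 2 lower (12.5%). Eif4g3, a scaffold of the cap-binding complex, had an exon at 0.03 and 0.32, and Pabpc4, a poly(A)-binding protein, one at 0.79 and 0.91. The exon of Eif5, which acts in start codon selection, was listed at 0.54 in WT and 0.37 in TKO, but its informative reads, 18 of 2454 for skipping in WT and 80 of 1580 in TKO, gave a difference of only -0.04 in the share of inclusion. How reads that fit both isoforms enter this level could not be examined, and by the read share the exon would not be called. The Map3k7 exon and the 0.76 and 0.92 event of Clcn3 also fell short by the read share, at 0.0962 and 0.0929.

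Chromatin genes had calls in both directions. Histone modifiers, readers and remodellers had 77 exons, with 2 called higher and 1 lower (3.90%). Mta1, a subunit of the NuRD deacetylase complex, had a 36-base exon at 0.03 (0.01 to 0.06) and 0.25 (0.19 to 0.32), Kdm5a, an H3K4 demethylase, an 82-base exon at 0.57 and 0.77, and Ncor1 the lower one. This list does not hold every chromatin gene, and Pcgf5, called lower, is outside it. Of 20 exons in HP1 and H3K9 methylation genes, 1 was higher and 1 lower (10.0%). The exon of Atrx, a remodeller of heterochromatin, stood at 0.18 (0.13 to 0.23) and 0.44 (0.36 to 0.52), and that of the H3K9 methyltransferase gene Ehmt2 at 0.42 (0.38 to 0.45) and 0.23 (0.19 to 0.27). DNA methylation genes had 5 exons with 1 called, in the methyl-CpG reader gene Mbd1 (0.48 and 0.59, exact test, adjusted p = 0.0121). The Mbd1 intervals overlapped, at 0.39 to 0.58 and 0.45 to 0.72, and its adjusted p was 0.0552 when centred on the median of its length class. None of the 5 exons of CTCF and cohesin genes and none of the 8 exons of pluripotency genes was called, in a Fisher's exact test that called 7.90% of all exons.

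In DNA repair and cell cycle genes 3 exons were higher and 1 lower of 45 (8.89%). They lay in Cdk2, which shares its locus with Pmel (0.50 and 0.61), in Cdk5rap2, in the cyclin L2 gene Ccnl2 (0.40 and 0.53), and in the excision repair gene Ercc8 (0.22 and 0.07). This list does not hold every such gene, and Usp1, called higher, is outside it. The Ccnl2 exon had an adjusted p of 0.00805, and 0.0936 when centred on the median of all exons. Zinc finger genes of the Zfp series had 2 higher and 2 lower of 54 (7.41%), among them Zfp239 (0.96 and 0.76) and Zfp518b (0.53 and 0.66, with overlapping intervals and 0.111 when centred on the median). In the smallest lists, Traf3 was the 1 call among 16 exons of apoptosis and innate immunity genes. Stk31 was the 1 among 4 exons of the list of germline genes silenced by promoter methylation. Stk31 was read in WT too, with 165 reads that fit an isoform at another event, against 448 in TKO. Pecam1, an endothelial adhesion molecule that ES cells also make (0.66 and 0.51), was the 1 among 3 of differentiated cell markers. The apoptosis and innate immunity list does not hold Tnip1, called lower, or Faim, called higher. At another event of Pecam1, reads that fit an isoform stood at 2.17 times the WT level.

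The reads of the genes were set beside the calls. For each gene, reads that fit an isoform were taken from its largest event alone and scaled to all such reads of the library. That event can be the called exon itself, as in Pdgfc and Slc66a2. The median log2 ratio of TKO to WT was 0.05 over the 1772 genes. It was 0.04 over the 134 genes with an exon called higher and -0.02 over the 52 with one called lower. A ratio beyond 2-fold in either direction was found in 4.91%, 5.22% and 11.5% of these genes. Among those beyond it, Stk31 was at 2.72, Pdgfc at 0.419, Tenm4 at 0.484, Slc25a26 at 2.09 and Slc66a2 at 0.454. Each event needed 100 reads to be listed, so 258 genes had an event only in TKO and 140 only in WT. Of these, 86 and 31 had at least 100 reads that fit an isoform. Best read of the genes listed in TKO alone were Xlr5a and Xlr3a (1423 and 793 reads), Dazl (676), Rhox2a (373), Sox17 (344), Rasgrp1 (335), Asz1 (316) and Myof (316). Dazl, an RNA-binding protein of germ cells, Asz1, a germ-cell protein of the piRNA pathway, and the X-linked Xlr and Rhox genes are known to be kept silent by promoter methylation, while Sox17 is an endoderm regulator. Xlr3a, Xlr5a and Rhox2a belong to families of near-identical copies, whose reads the authors' mapping could have split, so their values are uncertain. In WT alone the best read were Dsc2, a desmosomal cadherin (268), Gdap1l1 (223), Gm38469 (216), Stat4 (208), Exoc3l (207), Camk2d (188), Aspg (183) and Auts2 (165).

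The 250 bases before the Dazl start are printed below, chosen after the reads were seen, since Dazl had the most reads among the TKO-only genes that are not near-identical copies. Capitals mark each CG, the dinucleotide that the missing enzymes methylate (RefSeq, GRCm38.p6, chr17:50293621-50293870, minus strand). The window holds 20 CG, counted on 1 strand since CG reads the same on both, against a median of 6, and 17.9% of 32851 windows of this length in the table hold at least as many. No methylation value was used for it.
Dazl promoter: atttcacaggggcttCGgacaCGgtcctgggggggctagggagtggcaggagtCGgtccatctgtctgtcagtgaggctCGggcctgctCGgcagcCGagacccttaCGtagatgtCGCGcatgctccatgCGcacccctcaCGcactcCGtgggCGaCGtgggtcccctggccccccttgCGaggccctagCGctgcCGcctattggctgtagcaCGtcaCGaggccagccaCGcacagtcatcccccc

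The pair of libraries from HP1-depleted cells shares no library with the untransfected pair, and repeats the WT and TKO lines under transfection and on another read length. Within this pair siRNA doses were higher in TKO than in WT, so line and dose cannot be told apart in it. Of the 208 called exons, 134 had at least 20 informative reads in both of its libraries. Their levels differed in the same direction at 99, in the opposite direction at 30 and in 1 of the pairs not at all at 5, so 76.7% of those with a difference in both kept the direction. Over all exons so read the figure was 56.8% (642 same, 489 opposite). Exons called lower kept it at 29 of 32 and exons called higher at 70 of 97. The differences were smaller: the median went from 0.16 to 0.05 at exons called higher and from -0.15 to -0.05 at exons called lower. The called exons were chosen for their untransfected difference, which by itself favours a smaller second value. Depth was also lower. In the second pair 0.803% of 2117 exons with each read class were called, against 7.90% in the untransfected pair. Over all tested exons it was 0.469% of 4473, against 4.54%.

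Called in the same direction in both pairs were 7 exons. In untransfected cells and then under knock-down, levels in WT and TKO were 0.71 and 0.93, then 0.33 and 0.71, at the 220-base exon of Usp1. They were 0.41 and 0.62, then 0.28 and 0.56, in Mtmr3. In Cdk2/Pmel they were 0.50 and 0.61, then 0.24 and 0.41. The apoptosis inhibitor gene Faim had 0.11 and 0.23, then 0.03 and 0.13. Lower in both were the exons of Ehmt2 (0.42 and 0.23, then 0.30 and 0.20), Mfge8 (0.20 and 0.04, then 0.52 and 0.28) and the transport ATPase gene Atp13a3 (0.44 and 0.31, then 0.44 and 0.19). Slc7a3, Ndufv3 and Eif4a2 passed the exact test in the second pair with differences under 0.1, at 0.03 and 0.10, 0.13 and 0.05, and 0.10 and 0.05. Levels in WT themselves differ between the pairs, as at Eif4a2, which was at 0.81 untransfected, where transfection, HP1 depletion and read length cannot be told apart.

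**Figure D5:**
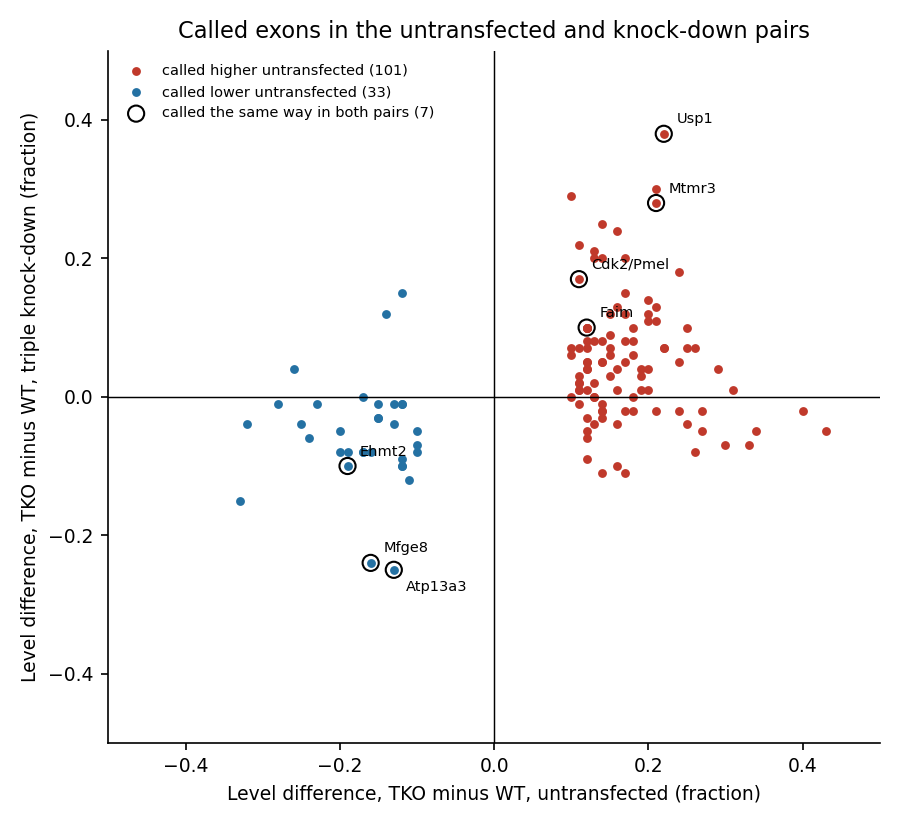
Difference of inclusion level, TKO minus WT, in untransfected cells (x axis, fraction) and under triple HP1 knock-down (y axis, fraction) for the 134 called exons read in both pairs; red was called higher and blue lower in untransfected cells, and circles mark the 7 exons called in the same direction in both. Points in the upper right and lower left kept their direction (99 of 134), and most lie closer to the horizontal line than to a difference as large as in untransfected cells.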

How the data were processed

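RNA reads were handled with Bowtie2 and TopHat2 on mm10, per the submitters' processing notes; their versions were not given in the sources used here. According to the file headers, the authors deposited MISO skipped-exon summaries: the inclusion level as a fraction with interval bounds, and the number of reads per class (inclusion alone, skipping alone, both, neither). Per the labels, 2 replicates of a group share 1 pooled summary. Every event has at least 100 reads, of which 50.5% (WT) and 49.1% (TKO) fit neither isoform. Bisulfite and MNase samples were not analysed here.

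Events were joined by coordinates and named by the RefSeq GRCm38.p6 gene that spans them. Two-sided Fisher's exact tests compared inclusion-alone with skipping-alone reads, with Benjamini-Hochberg adjustment over 7695 exons (scipy 1.17.1, python 3.11.15); odds ratios had 0.5 added to each class. Zelen's exact test compared odds ratios between pairs over 4344 exons. The code was tested on simulated data. Named exons were the 15 largest called differences per direction with intervals apart, 1 per gene, up to 3 called exons per gene list, all called exons of the 8 genes with the largest summed differences, and the 8 best-read genes listed in 1 library. Other exons named were chosen after their values were seen. Some exons that the rule named are left out of the text. Gene reads were taken from the gene's largest event alone. Reads that fit an isoform were used in place of all event reads. This change was made after the data were seen, because reads that fit neither dominated some events. The exons compared and the lists were chosen with earlier results of these data known. Alternatives changed the read minimum, class minimum, size threshold, adjustment, measure, null odds ratio and the events counted.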

Additional observations from a re-analysis of the deposited data

Results flagged for a closer look

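Of 76 named exons, 40 could be tested for a difference between the untransfected and the triple knock-down pair in the TKO to WT odds ratio of inclusion, and 9 passed (Zelen's exact test, adjusted over 4344 exons, of which 117 passed). All 9 were named for their untransfected difference. The 26-base Hnrnpc exon was at 0.31 in WT and 0.16 in TKO untransfected and at 0.59 and 0.58 under knock-down (exact test, adjusted p = 4.71e-17). The Celf1 exon was at 0.30 and 0.48, then 0.26 and 0.24 (exact test, adjusted p = 5.76e-05). Zfp219 was at 0.46 and 0.80, then 0.52 and 0.47 (exact test, adjusted p = 5.76e-05). For Csnk1d the levels were 0.48 and 0.60, then 0.54 and 0.45 (exact test, adjusted p = 0.00034). Eif5 was at 0.54 and 0.37, then 0.92 and 0.92 (exact test, adjusted p = 0.00227), and Sapcd2 at 0.58 and 0.88, then 0.70 and 0.63 (exact test, adjusted p = 0.00893). In Clcn3 the 251-base exon was at 0.24 and 0.37, then 0.11 and 0.07 (exact test, adjusted p = 0.012), and the 76-base exon at 0.45 and 0.85, then 0.21 and 0.19 (exact test, adjusted p = 0.0303); the exons share skipping reads. The exon in no gene on chromosome 12 was at 0.22 and 0.65, then 0.39 and 0.34 (exact test, adjusted p = 0.0433). Transfection, HP1 depletion and read length differ between the pairs and cannot be told apart. The siRNA dose also differs within the knock-down pair, where it was higher in TKO than in WT.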

How the results depend on the processing

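No paired analysis was possible because each group's replicates were merged into 1 library before deposit, so no replicate could be left out either and no value has a replicate error. The calls were 152 higher and 56 lower. Counting exons that lack a read class gave 244 higher and 105 lower. A size threshold of 0.2 gave 57 and 21, one of 0.05 gave 90 lower, and at least 100 informative reads gave 35 lower; each of these admits more or fewer exons by construction. The other alternatives kept each count within 1.5 times of these, including 116 higher and 81 lower with the median odds ratio of the exons as no change. The share of called exons with the same direction in the knock-down pair was 76.7%, and 76.1% to 76.2% under its 2 alternatives. Of the 76 named exons, 10 lost the call under each centred null and 3 by the read share, and none reversed. Exons with few reads have wide intervals, and events under 100 reads are not seen.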
